A study of Mus musculus with 17 samples.

Results

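Pachytene and diplotene spermatocytes (PD) were compared with leptotene and zygotene spermatocytes (LZ) of the mouse testis, with 3 RNA-seq libraries each. These 6 libraries were chosen by their labelled cell type from the 17 samples of the study, which followed male germ cells from early meiotic prophase to elongating spermatids. Per the labels, both groups came from testes of wild-type male C57BL/6JRj mice aged 3 months. Testes were digested to single cells with collagenase and trypsin, stained with Hoechst 33342 and SYTO 16, which bind nucleic acids, and sorted by flow cytometry, so a population is a sort gate and not a purified cell type. Libraries were prepared with TruSeq chemistry from Direct-zol total RNA; neither strand information nor any selection for polyadenylated RNA is given in the sources used here. The labels do not tie the 3 libraries of a group to different animals; the p-values therefore reflect only how these samples scatter, and that scatter may be technical.

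Meiotic prophase begins with leptotene, when chromosomes condense and programmed DNA breaks are made, and zygotene, when homologous chromosomes pair and the synaptonemal complex starts to form between them. In pachytene the homologues are fully synapsed and breaks are repaired into crossovers, and in diplotene the synaptonemal complex comes apart before the divisions. The X and Y of the male share little sequence, stay largely unsynapsed and are transcriptionally silenced during pachytene, a process called meiotic sex chromosome inactivation. Pachytene is also the stage at which A-MYB (encoded by Mybl1) is known to drive a large programme of transcription that includes precursors of pachytene piRNAs and many genes used later in the sperm.

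The PD libraries held 110.1, 122.4 and 137.3 M reads and the LZ libraries 96.3, 101.2 and 99.2 M. Genes of the reference table took 73.4% to 77.0% of the reads in PD and 48.4% to 64.9% in LZ. Between 9222 and 9316 genes reached 1 RPKM (read per kilobase of exon and M reads of the library) in PD, against 10923 to 11544 in LZ. LZ replicate 3 stood apart from its group. Across genes, its Spearman correlation with the PD libraries was 0.690 to 0.714, against 0.512 to 0.564 for the other LZ libraries. Members of the gene lists below that changed call without it are named with their lists.

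The 4 marker genes fixed for these stages separated the groups. Dmc1, the meiosis-specific recombinase that carries out strand invasion, had 0.108, 0.104 and 0.132 RPKM in PD, against 74.9, 46.3 and 63.5 RPKM in LZ (log2 fold change -8.93 ± 0.27, adjusted p = 5.6e-10). Stra8, the switch into meiosis, had 0.0554, 0.0634 and 0.0323 RPKM in PD, against 14.3, 12.5 and 13.7 RPKM in LZ (log2 fold change -7.84 ± 0.58, adjusted p = 1.2e-07). Both were low in every PD library and high in every LZ library. Sycp3, a lateral element protein of the synaptonemal complex, was present in both groups, with 136, 123 and 109 RPKM in PD, against 584, 445 and 481 RPKM in LZ (log2 fold change -2.03 ± 0.26, adjusted p = 1.5e-05). Piwil1, the pachytene PIWI protein, had 106, 127 and 104 RPKM in PD, against 6.16, 9.06 and 62.5 RPKM in LZ (log2 fold change 2.88 ± 0.65, adjusted p = 0.0014). The groups did not overlap, but LZ replicate 3 stood well above the other LZ libraries, and without it the log2 fold change of Piwil1 was 3.90.

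**Figure D1:**
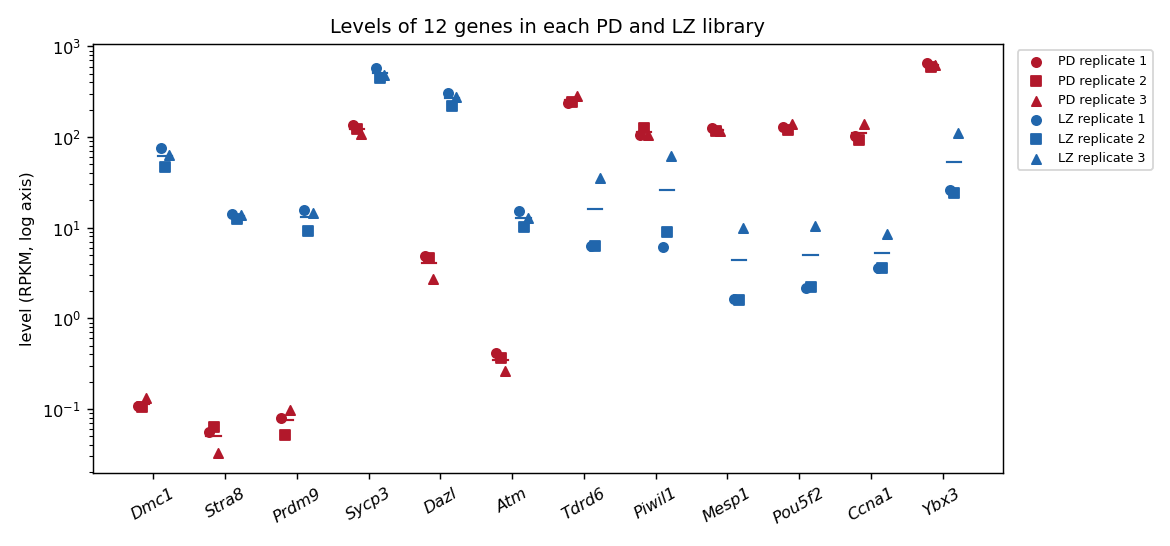
Levels of 12 genes in RPKM on a log axis, one point per library, with PD in red on the left of each gene and LZ in blue on the right; lines are the means of 3 libraries. Dmc1, Stra8, Prdm9, Sycp3, Dazl and Atm lie lower in PD than in LZ, and for Tdrd6, Piwil1, Mesp1, Pou5f2, Ccna1 and Ybx3 LZ replicate 3 (triangle) is the LZ library nearest to PD.

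Markers of other cells were measured in the same libraries. The summed level of 18 Sertoli cell markers was 2.69, 2.63 and 3.52 RPKM in PD, against 119.7, 104.2 and 182.9 RPKM in LZ. All 11 Sertoli markers that passed the filter on low values fell, among them Clu, with 0.336, 0.323 and 0.330 RPKM in PD, against 23.9, 17.6 and 25.4 RPKM in LZ, and Cst9, with 0.436, 0.190 and 0.276 RPKM in PD, against 18.5, 17.9 and 35.9 RPKM in LZ. Each of the 11 had 1 RPKM or more in every LZ library, which was enough to pass the filter. The count of falls was therefore tilted beforehand and carries no weight of its own. In PD 17 of the 18 stayed under 1 RPKM in every library, against 5 of the 18 in LZ, namely Sox9, Amh, Gata4, Rhox8 and Fshr. The defining genes were also higher in LZ: Sox9 had 0.00879, 0.00395 and 0.00352 RPKM in PD, against 0.136, 0.139 and 0.273 RPKM in LZ, Wt1 had 0.0147, 0.00528 and 0.0200 RPKM in PD, against 0.433, 0.585 and 1.24 RPKM in LZ and Amhr2 had 0.272, 0.428 and 0.432 RPKM in PD, against 9.57, 9.73 and 15.8 RPKM in LZ. The 13 elongating-spermatid markers summed to 101.2, 84.7 and 313.3 RPKM in PD, against 922, 1128 and 1548 RPKM in LZ, and all 13 fell, with Prm1 at 13.6, 11.6 and 46.2 RPKM in PD, against 165, 200.4 and 268 RPKM in LZ. The 13 round-spermatid markers summed to 65.4, 61.7 and 77.6 RPKM in PD, against 30.4, 28.1 and 61.8 RPKM in LZ. Their highest member was Zpbp, an acrosomal gene, with 54.3, 50.1 and 54.0 RPKM in PD, against 9.43, 7.03 and 14.8 RPKM in LZ. The other 12 summed to 11.1, 11.6 and 23.6 RPKM in PD, against 21.014, 21.1 and 47.0 RPKM in LZ. All 13 were tested: Zpbp rose, Tex29 fell (not without LZ replicate 3), 11 were not called, and their median log2 fold change was -1.03. Spermatogonial markers (15 genes) summed to 14.1, 14.2 and 11.0 RPKM in PD, against 53.2, 45.9 and 46.7 RPKM in LZ. Of the 6 that were tested, 3 fell and 3 rose: Dmrt1 had 0.0560, 0.132 and 0.0842 RPKM in PD, against 16.2, 15.3 and 12.1 RPKM in LZ, while Id4 had 7.82, 7.93 and 5.41 RPKM in PD, against 1.09, 1.35 and 8.0032 RPKM in LZ, where LZ replicate 3 overlapped with PD. Leydig, myoid, vascular and blood markers each summed to at most 7.51 RPKM in any library of either group; the Leydig gene Star and the blood gene Hba-a1 were called as falls only with LZ replicate 3 included. In sorted bulk samples, fewer cells of a type and less RNA per cell cannot be told apart, and the part of these other cells in the falls below was not tested.

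Over all genes, levels moved in both directions. A gene was called where limma's moderated test gave a Benjamini-Hochberg adjusted p under 0.05 and the absolute log2 fold change was at least 1. Of 13260 genes tested, 3375 rose (25.5%) and 4745 fell (35.8%), and the median log2 fold change was -0.36. Without LZ replicate 3, 3591 rose (27.1%) and 4441 fell (33.5%); 3331 of the rises and 4403 of the falls were called both times, and no gene changed direction. The split depended on scaling: with each library centred on the median of its tested genes, which moved the median log2 fold change to 0.09, 4443 rose and 3946 fell, and with scaling to the reads in genes, which moved it to -0.79, 2669 rose and 5630 fell. Counts for gene groups below are read against the shares of all genes, 25.5% rising and 35.8% falling. All PD libraries lay above all LZ libraries in 34.8% of the tested genes and below them in 46.3%. A lack of overlap between the groups was therefore common. Besides the genes named by a rule, list members are described by role; those were picked after their values had been seen.

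Genes of meiotic entry were mostly lower in PD. Of 12 tested members 10 fell, with a list median of -5.41 on the log2 scale, against -0.36 over all genes. Bhmg1, known as MEIOSIN, the partner of STRA8, had 0.0948, 0.0887 and 0.0977 RPKM in PD, against 24.4, 17.03 and 21.3 RPKM in LZ (log2 fold change -7.64 ± 0.30, adjusted p = 1.9e-09). Sohlh2, a transcription factor of differentiating spermatogonia, had 0.0499, 0.0899 and 0.0739 RPKM in PD, against 25.2, 17.6 and 27.8 RPKM in LZ (log2 fold change -8.18 ± 0.29, adjusted p = 1.9e-09). Levels in every PD library were under 0.1 RPKM for both genes. Dazl, an RNA-binding protein needed to enter meiosis, was among the most abundant members in LZ and had 4.93, 4.59 and 2.70 RPKM in PD, against 309, 218 and 273 RPKM in LZ (log2 fold change -6.06 ± 0.51, adjusted p = 3.1e-07). Ythdc2, an RNA helicase that ends the mitotic programme, had 3.03, 3.30 and 2.30 RPKM in PD, against 34.8, 24.4 and 32.6 RPKM in LZ (log2 fold change -3.41 ± 0.51, adjusted p = 5.4e-05), whereas its binding partner Meioc was not called, with 53.2, 50.6 and 54.5 RPKM in PD, against 109, 78.1 and 113 RPKM in LZ (adjusted p = 0.14). Rec8, the meiotic cohesin subunit, was low in both groups, at 0.306, 0.373 and 0.863 RPKM in PD, against 2.40, 1.86 and 2.57 RPKM in LZ, and was no longer called without LZ replicate 3.

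Of 11 tested break-formation genes 8 fell. Prdm9, the histone methyltransferase that places breaks, had 0.0801, 0.0512 and 0.0980 RPKM in PD, against 15.8, 9.24 and 14.4 RPKM in LZ (log2 fold change -7.25 ± 0.40, adjusted p = 1e-08). Its reader Zcwpw1 had 4.98, 4.95 and 3.94 RPKM in PD, against 87.7, 62.8 and 88.1 RPKM in LZ (log2 fold change -4.09 ± 0.25, adjusted p = 2.6e-08). Gm960, which RefSeq also lists as Top6bl, encodes the subunit that works with SPO11 in the break-making complex; it had 0.460, 0.441 and 0.363 RPKM in PD, against 12.4, 8.18 and 8.68 RPKM in LZ (log2 fold change -4.48 ± 0.29, adjusted p = 3.9e-08). Spo11 itself, which carries the catalytic site, was not called, with 29.6, 28.6 and 26.7 RPKM in PD, against 24.8, 19.5 and 26.4 RPKM in LZ (adjusted p = 0.72). Iho1, a cofactor on chromosome axes, was not called either, with 12.2, 11.5 and 13.8 RPKM in PD, against 17.04, 11.2 and 18.4 RPKM in LZ. Hormad1, an axis protein that marks unsynapsed chromosomes, remained abundant in PD while it fell, with 47.2, 43.1 and 32.7 RPKM in PD, against 176, 141 and 179 RPKM in LZ (log2 fold change -2.02 ± 0.56, adjusted p = 0.0055).

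Strand invasion genes split. Of 26 tested, 13 fell and 3 rose, with 7 rises under median centring. Mnd1 and Psmc3ip encode the partners of the HOP2-MND1 complex that helps DMC1; the first fell and the second rose. Mnd1 had 0.799, 0.542 and 0.524 RPKM in PD, against 15.7, 13.1 and 16.2 RPKM in LZ (log2 fold change -4.59 ± 0.29, adjusted p = 2.7e-08). Psmc3ip had 87.9, 78.8 and 75.8 RPKM in PD, against 20.8, 19.956 and 40.2 RPKM in LZ (log2 fold change 1.66 ± 0.33, adjusted p = 0.00057). The trimer that coats single-stranded DNA, RPA, showed the same kind of split. Rpa1, its large subunit, had 78.6, 74.2 and 80.0 RPKM in PD, against 9.09, 7.05 and 16.2 RPKM in LZ (log2 fold change 2.94 ± 0.43, adjusted p = 4e-05). Rpa2 had 4.70, 4.60 and 3.09 RPKM in PD, against 24.3, 19.7 and 26.025 RPKM in LZ, and Rpa3 had 0.863, 1.24 and 0.494 RPKM in PD, against 9.22, 7.24 and 5.66 RPKM in LZ; both fell. Meiob, an RPA1-like protein of meiosis, fell as well, with 4.27, 4.09 and 3.33 RPKM in PD, against 98.7, 73.7 and 78.3 RPKM in LZ (log2 fold change -4.42 ± 0.34, adjusted p = 1.5e-07). Rad54b was called as a fall only with LZ replicate 3 included.

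Crossover and mismatch repair genes fell for 15 of 23 tested members, among them Ccnb1ip1, whose level is uncertain, and 2 rose. Msh4 and Msh5, which form the clamp that stabilises crossover intermediates, had mean levels of 1.21 ± 0.239 RPKM in PD, against 9.51 ± 0.656 RPKM in LZ, and 1.76 ± 0.223 RPKM in PD, against 13.6 ± 1.10 RPKM in LZ (SD, n = 3 each). Rnf212b, a ligase-like crossover factor, had 0.544, 0.340 and 0.407 RPKM in PD, against 17.4, 12.2 and 14.1 RPKM in LZ (log2 fold change -5.06 ± 0.47, adjusted p = 8.3e-07). Mcm8, a helicase of recombination, had 0.344, 0.411 and 0.239 RPKM in PD, against 17.3, 15.4 and 14.4 RPKM in LZ (log2 fold change -5.56 ± 0.65, adjusted p = 6e-06), whereas its partner Mcm9 was not called, with 2.92, 2.84 and 2.46 RPKM in PD, against 4, 3.82 and 4.05 RPKM in LZ. Mlh3, a mismatch repair protein of late crossovers, had 12.6, 13.3 and 13.6 RPKM in PD, against 6.58, 5.72 and 11.2 RPKM in LZ, a difference called as a rise only without LZ replicate 3. The members that rose were Prr19, a factor of late crossover designation that had 32.035, 31.3 and 29.9 RPKM in PD, against 5.30, 4.96 and 10.3 RPKM in LZ (log2 fold change 2.26 ± 0.31, adjusted p = 2.5e-05), and Mus81, a structure-specific nuclease that had 9.10, 8.87 and 8.38 RPKM in PD, against 2.49, 1.91 and 3.70 RPKM in LZ (log2 fold change 1.75 ± 0.22, adjusted p = 1.2e-05). Cntd1, the cyclin-like partner of PRR19, was not called, with 46.4, 43.3 and 49.8 RPKM in PD, against 31.6, 26.7 and 61.2 RPKM in LZ. Exo1 and Rnf212 lost their call as falls without LZ replicate 3.

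In the synaptonemal complex 8 of 10 tested genes fell and 1 rose. Sycp1, which spans the central region, had 39.1, 35.2 and 24.963 RPKM in PD, against 322, 224 and 254 RPKM in LZ (log2 fold change -3.02 ± 0.36, adjusted p = 7.6e-06). The central element genes Syce2 and Tex12 fell, and 4930447C04Rik, which RefSeq also lists as Six6os1, another central element protein, had 1.10, 0.932 and 0.419 RPKM in PD, against 35.9, 24.4 and 23.2 RPKM in LZ (log2 fold change -5.16 ± 0.48, adjusted p = 8.6e-07). Syce1, of the same central element, went the other way, with 361, 325 and 367 RPKM in PD, against 59.5, 50.5 and 112 RPKM in LZ (log2 fold change 2.33 ± 0.25, adjusted p = 2.9e-06). The lateral element gene Sycp2 changed least among those that fell, with 87.3, 92.0 and 95.9 RPKM in PD, against 237, 166 and 218 RPKM in LZ (log2 fold change -1.16 ± 0.36, adjusted p = 0.011). Trip13, the ATPase that strips HORMAD proteins from synapsed axes, had 1.31, 1.35 and 1.08 RPKM in PD, against 7.04, 5.83 and 6.09 RPKM in LZ (log2 fold change -2.33 ± 0.44, adjusted p = 0.00033).

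Cohesin genes fell for 11 of 19 tested members, and Cdca5 (sororin) rose. Rad21l, a meiosis-specific kleisin, had 0.0219, 0.0689 and 0.0527 RPKM in PD, against 27.5, 20.2 and 24.9 RPKM in LZ (log2 fold change -8.80 ± 0.61, adjusted p = 6.4e-08). Smc3, the subunit shared by all cohesin complexes, had 1.04, 1.24 and 2.59 RPKM in PD, against 33.3, 21.9 and 28.3 RPKM in LZ (log2 fold change -4.19 ± 0.50, adjusted p = 6.9e-06). Esco2, an acetyltransferase that stabilises cohesion in S phase, had 0.756, 0.717 and 0.309 RPKM in PD, against 26.7, 19.9 and 23.9 RPKM in LZ (log2 fold change -5.38 ± 0.46, adjusted p = 4.3e-07). Stag3, a meiosis-specific subunit, was not called, with 139, 126 and 126 RPKM in PD, against 84.0, 66.0 and 113 RPKM in LZ (adjusted p = 0.34), and neither was Smc1b, with 49.1, 51.1 and 60.3 RPKM in PD, against 139, 83.8 and 124 RPKM in LZ. Cdca5 lay near the fold threshold, with 12.3, 13.2 and 13.9 RPKM in PD, against 6.91, 5.62 and 7.16 RPKM in LZ (log2 fold change 1.006 ± 0.20, adjusted p = 0.00052); its call was lost without PD replicate 3 (log2 fold change 0.96) or without LZ replicate 2 (0.90). Among 14 genes that tether telomeres to the nuclear envelope or cap them, 4 fell and 1 rose, shares below those of all genes. Without LZ replicate 3, Terb2 lost its call as a fall and Kash5 was called as a rise, so that 3 fell and 2 rose. Sun1, the envelope protein that links telomeres to the cytoskeleton, had 12.4, 13.6 and 10.8 RPKM in PD, against 33.2, 28.5 and 36.0 RPKM in LZ (log2 fold change -1.41 ± 0.33, adjusted p = 0.0018). Spdya, an activator of CDK2 at telomeres, had 86.9, 76.5 and 75.4 RPKM in PD, against 28.4, 23.5 and 40.7 RPKM in LZ (log2 fold change 1.40 ± 0.37, adjusted p = 0.0042), and lost its call under quantile scaling (0.48) or scaling to the reads in genes (0.97).

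The kinases of the DNA damage response moved unequally. Atr, which signals from unsynapsed chromosomes and starts silencing of X and Y, was not called, with 65.8, 63.2 and 68.2 RPKM in PD, against 112, 78.5 and 121 RPKM in LZ (adjusted p = 0.18). Atm, which responds to breaks and limits their number, had 0.413, 0.362 and 0.265 RPKM in PD, against 15.4, 10.2 and 12.9 RPKM in LZ (log2 fold change -5.17 ± 0.31, adjusted p = 2.3e-08), without overlap between the groups. Of the 23 tested genes of this list 13 fell (20 with scaling to the reads in genes), among them Topbp1, an activator of ATR, with 7.44, 7.14 and 5.48 RPKM in PD, against 41.0, 30.4 and 41.9 RPKM in LZ, and Brca1, which loads ATR on axes, with 0.553, 0.580 and 0.495 RPKM in PD, against 11.8, 8.86 and 9.91 RPKM in LZ. Mdc1, which spreads the signal into chromatin loops, was not called, with 21.5, 23.8 and 20.1 RPKM in PD, against 35.8, 33.0 and 42.9 RPKM in LZ, and H2ax, the histone that is phosphorylated there, was called as a fall only with LZ replicate 3 included, as was Rad1. Of 9 tested genes of DNA methylation 6 fell. Hells, a chromatin remodeller needed for methylation, had 2.48, 2.72 and 2.48 RPKM in PD, against 38.9, 26.7 and 28.0 RPKM in LZ (log2 fold change -3.58 ± 0.32, adjusted p = 5.6e-07), and Dnmt1, the maintenance methyltransferase, was not called, with 11.7, 13.6 and 11.1 RPKM in PD, against 12.7, 9.01 and 13.4 RPKM in LZ.

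**Figure D2:**
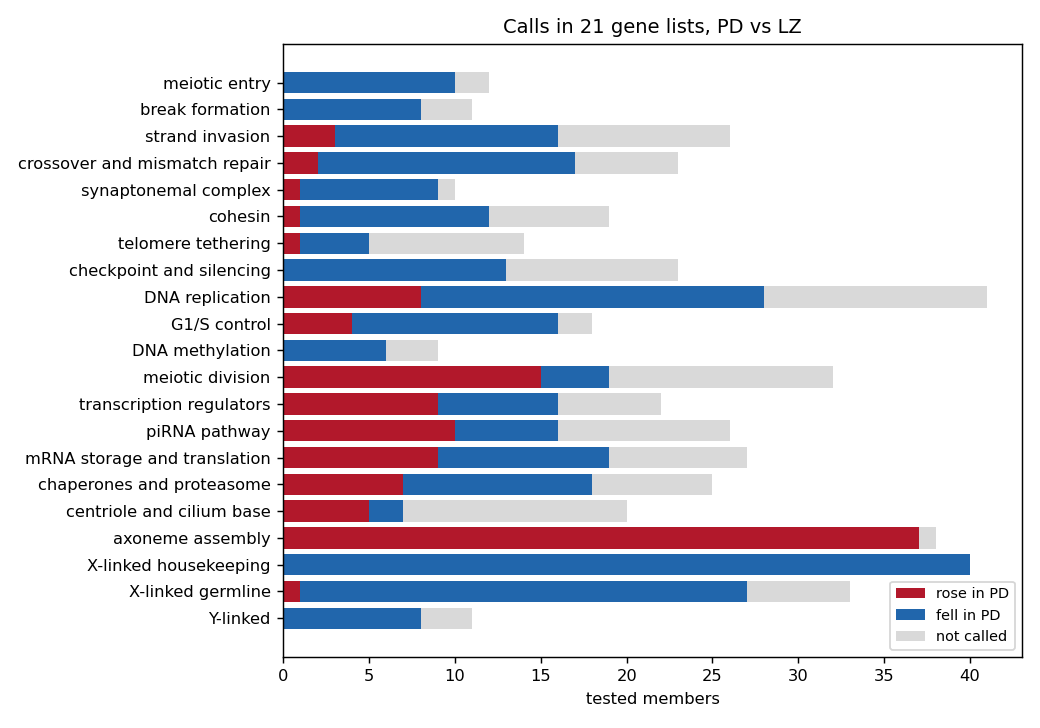
Number of tested members of 21 gene lists that rose (red), fell (blue) or were not called (grey) in PD vs LZ. Axoneme assembly genes rose in 37 of 38 cases, X-linked housekeeping genes fell in 40 of 40, and most recombination lists hold more falls than rises.

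The X chromosome was set apart from every autosome. Of 527 tested X-linked genes 446 fell (84.6%) and 2 rose, and the median log2 fold change was -5.84. Across the 19 autosomes the medians lay between -0.64 (chromosome 13) and -0.02 (chromosome 5). The X-linked part of all reads in genes was 0.0175%, 0.0186% and 0.0329% in PD, against 2.49%, 2.03% and 1.35% in LZ, so LZ replicate 3 was the lowest LZ library and PD replicate 3 the highest PD library. In round spermatids, the stage after the divisions, the share was 0.516%, 0.428% and 0.539%. Of 130 X-linked genes with at least 5 RPKM in every LZ library, 112 (86.2%) were under 0.5 RPKM in every PD library, against 201 of 5407 autosomal genes (3.72%). At a ceiling of 0.1 RPKM these counts were 55 (42.3%) and 42 (0.777%). Without LZ replicate 3, 436 X-linked genes fell and 2 rose. On the Y, 18 of 35 tested genes fell, and the known single-copy genes Ddx3y, an RNA helicase, and Usp9y, a deubiquitinase, had 0.0194, 0.0139 and 0.0342 RPKM in PD, against 12.9, 8.55 and 6.90 RPKM in LZ, and 0.148, 0.115 and 0.161 RPKM in PD, against 28.4, 19.3 and 13.5 RPKM in LZ.

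**Figure D3:**
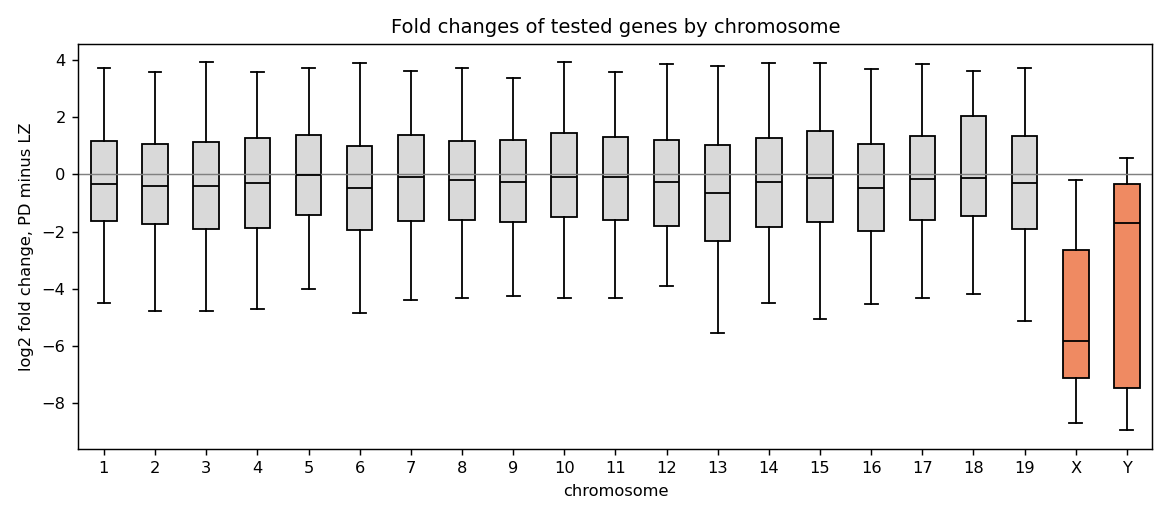
Log2 fold changes (PD minus LZ) of tested genes by chromosome; boxes span the quartiles with the median as a line, and whiskers run from the 5th to the 95th percentile. The median of the X is -5.84 and that of the Y is -1.70, while the autosomes lie between -0.64 and -0.02.

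Housekeeping and germline genes of the X were both lower. All 40 tested genes of a list of X-linked housekeeping genes fell, with a median of -6.50. Atp6ap2, an accessory protein of the proton pump, had 0.0139, 0.0218 and 0.0723 RPKM in PD, against 31.0, 22.2 and 17.1 RPKM in LZ (log2 fold change -9.16 ± 0.59, adjusted p = 3.6e-08). Fmr1, an RNA-binding regulator of translation, had 0.0446, 0.0383 and 0.0609 RPKM in PD, against 29.1, 18.7 and 18.6 RPKM in LZ (log2 fold change -8.56 ± 0.33, adjusted p = 1.9e-09). Ndufa1, a subunit of respiratory complex I, fell as well but was the second most abundant X-linked gene left in PD, with 7.11, 5.93 and 3.98 RPKM in PD, against 146, 109 and 102 RPKM in LZ (log2 fold change -4.41 ± 0.32, adjusted p = 8.5e-08). Among X-linked germline genes, 26 of 33 tested fell and 1 rose. Usp26, a testis deubiquitinase, had 0.0461, 0.0534 and 0.0951 RPKM in PD, against 45.6, 25.959 and 20.2 RPKM in LZ (log2 fold change -8.64 ± 0.70, adjusted p = 2.4e-07). Xlr4a had 0.0296, 0.0319 and 0.00949 RPKM in PD, against 26.2, 16.7 and 13.4 RPKM in LZ (log2 fold change -9.15 ± 0.57, adjusted p = 2.5e-08); it belongs to a family of near-identical copies, so its reads may belong to other members. The X-linked genes that rose were Spin2d, with 0.564, 0.531 and 0.466 RPKM in PD, against 0.297, 0.0584 and 0.119 RPKM in LZ, and Astx6, with 0.111, 0.0781 and 0.0633 RPKM in PD, against 0, 0.0172 and 0 RPKM in LZ, so neither reached 1 RPKM in PD. Spin2d lost its call without LZ replicate 2. Quantile scaling called 35 X-linked rises.

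The few X-linked genes with the highest levels in PD included genes of spermatids. Akap4, a scaffold of the sperm tail sheath, had 4.43, 3.46 and 12.3 RPKM in PD, against 31.4, 33.9 and 51.4 RPKM in LZ. Cypt1, a basic protein of spermatids, had 0.860, 1.28 and 3.9962 RPKM in PD, against 7.48, 7.06 and 15.3 RPKM in LZ. PD replicate 3 was the highest PD library for both, as it was for the summed elongating-spermatid markers, and the part of spermatid RNA in these levels was not tested. Tsga8 was not called, with 5.11, 4.41 and 7.26 RPKM in PD, against 4.61, 5.04 and 11.7 RPKM in LZ, and averaged 138.5 RPKM over 3 libraries in round spermatids. H2ab3, a histone variant gene expressed in the testis, was higher in every PD library without passing the threshold, with 1.62, 1.74 and 1.07 RPKM in PD, against 0.239, 0.312 and 0.232 RPKM in LZ (log2 fold change 2.43 ± 1.05, adjusted p = 0.054); it has close copies on the X and was picked after its values had been seen.

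Several X-linked housekeeping genes have autosomal relatives, many of them retrogenes, that are used in the germ line. In all, 14 pairs of an X-linked gene and an autosomal relative were measured. The pair of Taf7l and Taf7 differs, because its autosomal member is a general transcription factor subunit. The X-linked partner fell in all 14 pairs, and the autosomal relative rose in 8 and fell in 2. Timm8a2, a relative of the mitochondrial import factor gene Timm8a1, had 56.1, 45.7 and 41.1 RPKM in PD, against 2.92, 2.85 and 7.66 RPKM in LZ (log2 fold change 3.56 ± 0.35, adjusted p = 1.4e-06). Pgk2, the germline phosphoglycerate kinase, had 162, 141 and 189 RPKM in PD, against 23.7, 21.1 and 48.8 RPKM in LZ (log2 fold change 2.49 ± 0.30, adjusted p = 7.3e-06), and its X-linked partner Pgk1 had 0.0486, 0.0692 and 0.101 RPKM in PD, against 1.73, 1.48 and 1.17 RPKM in LZ. Rpl10l, a ribosomal protein gene, had 222, 200.3 and 188 RPKM in PD, against 51.4, 47.8 and 120.4 RPKM in LZ (log2 fold change 1.61 ± 0.42, adjusted p = 0.0043), and Rpl10 had 0.0442, 0.0716 and 0.0497 RPKM in PD, against 6.71, 4.66 and 4.23 RPKM in LZ. Prps1l1, of phosphoribosyl pyrophosphate synthesis, had 282, 257 and 262 RPKM in PD, against 5.5954, 6.51 and 32.4 RPKM in LZ (log2 fold change 4.66 ± 0.63, adjusted p = 2.2e-05), and Prps1 had 0.150, 0.143 and 0.183 RPKM in PD, against 18.1, 13.6 and 9.09 RPKM in LZ. In PD the relative was the more abundant member in every library in all 14 pairs. In LZ it was so in every library in 11 of the 14, and the exceptions were Prps1l1, G6pd2 and Taf7. Ribosomal protein genes have many processed copies, so the levels within the ribosomal pairs are uncertain. Pdha2, of pyruvate dehydrogenase, had 137, 123 and 126 RPKM in PD, against 26.6, 23.9 and 71.6 RPKM in LZ (log2 fold change 1.85 ± 0.66, adjusted p = 0.025), and its call was lost when any library other than LZ replicate 3 was left out (adjusted p of 0.050 to 0.090). Under quantile scaling Rpl10l, Rpl39l, Rpl36al and Pdha2 lost their calls, with log2 fold changes of 0.17 to 0.93.

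Not every relative rose. Cstf2t, of the 3′ end processing machinery, was not called, with 23.7, 23.9 and 23.0 RPKM in PD, against 19.5, 14.8 and 28.5 RPKM in LZ (adjusted p = 0.62), while Cstf2 on the X had 0.0811, 0.120 and 0.227 RPKM in PD, against 13.9, 9.61 and 9.72 RPKM in LZ. Utp14b, needed for ribosome assembly, was not called, with 5.89, 5.64 and 7.96 RPKM in PD, against 9.11, 7.43 and 8.04 RPKM in LZ. Rbmxl2, a splicing regulator of meiosis, was not called, with 11.8, 10.7 and 8.26 RPKM in PD, against 13.4, 15.9 and 30.003 RPKM in LZ; it fell under quantile scaling and with scaling to the reads in genes. Taf7, a general transcription factor subunit, was not called, with 12.2, 11.1 and 11.4 RPKM in PD, against 21.8, 19.3 and 21.9 RPKM in LZ, while its X-linked counterpart Taf7l had 0.344, 0.426 and 0.483 RPKM in PD, against 143, 94.958 and 97.3 RPKM in LZ; Taf7 fell under quantile scaling. Of the relatives that fell, G6pd2 was at or under 1.36 RPKM in all 6 libraries and changed sign under quantile scaling.

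**Figure D4:**
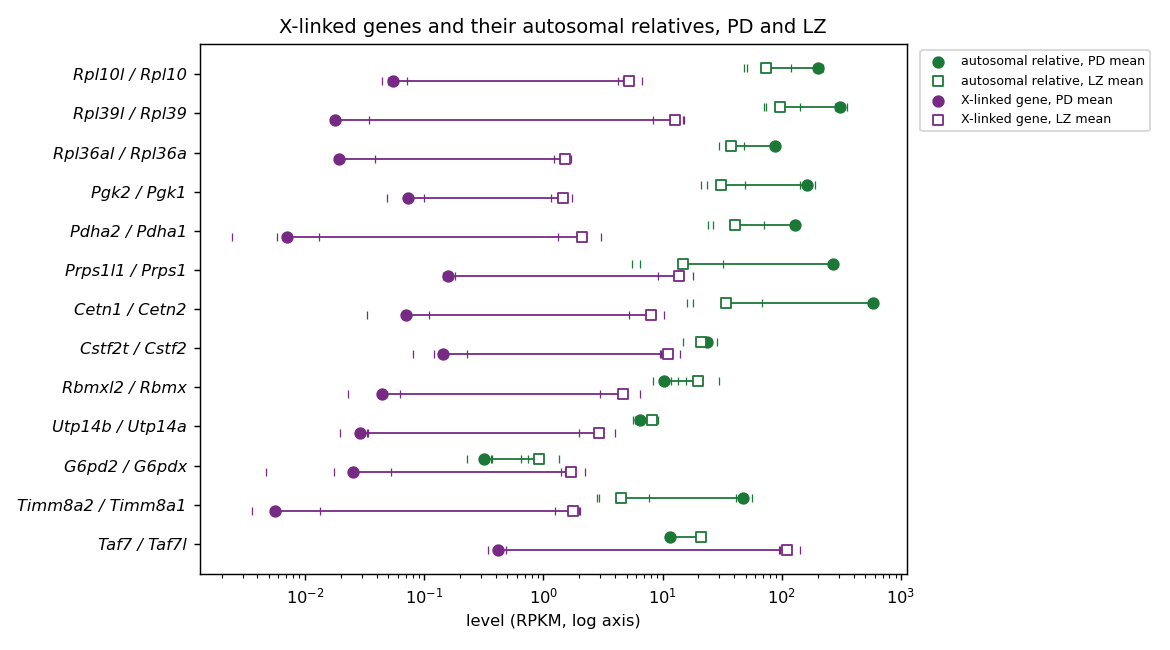
Levels in RPKM (log axis) of 13 X-linked genes (purple) and their autosomal relatives (green), with the PD mean as a filled circle, the LZ mean as an open square, and ticks for the single libraries above 0. All 13 X-linked genes lie lower in PD than in LZ, and 8 of the relatives were called higher.

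Genes of DNA replication were mixed: 20 of 41 tested fell and 8 rose, with 13 rises under median centring and 3 with scaling to the reads in genes. Without LZ replicate 3, Gins3 lost its call as a fall and Gins1 and Pold2 were called as rises. The replicative helicase fell in 5 of its 6 subunits. Mcm2 had 0.0818, 0.0879 and 0.0947 RPKM in PD, against 10.8, 8.36 and 7.50 RPKM in LZ (log2 fold change -6.49 ± 0.27, adjusted p = 2e-09). Mcm5 had 1.70, 1.55 and 0.735 RPKM in PD, against 36.6, 27.6 and 35.7 RPKM in LZ (log2 fold change -4.72 ± 0.46, adjusted p = 1.3e-06). Mcm7 was not called, with 36.8, 33.5 and 32.8 RPKM in PD, against 19.8, 16.5 and 33.8 RPKM in LZ (adjusted p = 0.062). Fen1, the flap nuclease of lagging strand synthesis, had 0.319, 0.310 and 0.256 RPKM in PD, against 17.5, 13.2 and 16.3 RPKM in LZ (log2 fold change -5.68 ± 0.32, adjusted p = 1.1e-08). The histone chaperone CAF-1 rose in both of its specific subunits tested. Chaf1a had 50.4, 48.4 and 45.0 RPKM in PD, against 11.3, 10.6 and 19.9 RPKM in LZ (log2 fold change 1.84 ± 0.26, adjusted p = 3.6e-05), and Chaf1b had 5.02, 4.48 and 3.31 RPKM in PD, against 2.14, 1.43 and 2.55 RPKM in LZ (log2 fold change 1.08 ± 0.26, adjusted p = 0.0023). Clamp loader subunits differed too: Rfc1 and Rfc2 rose, Rfc5 fell, and the clamp itself, Pcna, was not called, with 66.6, 59.7 and 55.4 RPKM in PD, against 47.7, 39.5 and 55.4 RPKM in LZ.

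Among genes that control the entry into S phase, 12 of 18 tested fell and 4 rose. Under another scaling fewer fell, 6 under median centring and 7 under quantile scaling. E2f1, a transcription factor of S phase, had 0.00864, 0.0311 and 0.0208 RPKM in PD, against 3.37, 3.54 and 3.18 RPKM in LZ (log2 fold change -6.88 ± 0.48, adjusted p = 7.1e-08). Rb1, its inhibitor, had 1.45, 1.57 and 1.28 RPKM in PD, against 12.6, 8.85 and 8.75 RPKM in LZ (log2 fold change -2.78 ± 0.26, adjusted p = 8.5e-07). Cdk4, a kinase that inactivates RB, had 4.42, 3.58 and 2.19 RPKM in PD, against 7.86, 7.12 and 10.8 RPKM in LZ (log2 fold change -1.37 ± 0.42, adjusted p = 0.01), a call that was lost without PD replicate 3 (adjusted p = 0.052) and under median centring. The inhibitors of CDK4 encoded by Cdkn2c and Cdkn2d rose. Cdkn2c had 66.0, 59.8 and 64.6 RPKM in PD, against 7.67, 6.74 and 20.8 RPKM in LZ (log2 fold change 2.63 ± 0.33, adjusted p = 1.1e-05), and Cdkn2d had 61.3, 57.6 and 62.5 RPKM in PD, against 8.95, 6.93 and 19.968 RPKM in LZ (log2 fold change 2.49 ± 0.50, adjusted p = 0.00058). Other inhibitors fell, namely Cdkn1a, Cdkn1c and Cdkn2a, all of which were under 3 RPKM in every library. Rbl1 lost its call as a fall without LZ replicate 3.

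Genes of the meiotic divisions were more often higher. Of 32 tested, 15 rose (46.9%, against 25.5% of all genes) and 4 fell. With scaling to the reads in genes 9 rose and 7 fell, and under quantile scaling 7 fell. Ccna1, the germline cyclin A, had 103, 93.0 and 139 RPKM in PD, against 3.56, 3.56 and 8.47 RPKM in LZ (log2 fold change 4.53 ± 0.34, adjusted p = 1.1e-07), whereas Ccna2, the somatic form, had 3.22, 3.08 and 3.35 RPKM in PD, against 18.5, 12.7 and 11.1 RPKM in LZ (log2 fold change -2.10 ± 0.53, adjusted p = 0.003). Aurkc, a germline kinase of the chromosomal passenger complex, had 18.6, 16.3 and 18.2 RPKM in PD, against 0.586, 0.843 and 1.31 RPKM in LZ (log2 fold change 4.34 ± 0.77, adjusted p = 0.00023). Haspin, the histone kinase that recruits this complex, had 259, 234 and 257 RPKM in PD, against 17.8, 15.2 and 41.5 RPKM in LZ (log2 fold change 3.48 ± 0.30, adjusted p = 4.3e-07). Pttg1, or securin, which holds separase inactive, had 43.1, 41.8 and 52.3 RPKM in PD, against 6.52, 5.18 and 18.3 RPKM in LZ (log2 fold change 2.42 ± 0.55, adjusted p = 0.0016), and Espl1, which encodes separase, had 15.3, 16.9 and 19.8 RPKM in PD, against 8.14, 6.86 and 11.0 RPKM in LZ (log2 fold change 1.02 ± 0.41, adjusted p = 0.039). Cyclin B1 and its partner kinase were less clear: Cdk1, the kinase, was not called, with 15.5, 14.3 and 17.7 RPKM in PD, against 15.4, 13.8 and 15.3 RPKM in LZ, nor was Ccnb1, with 7.68, 7.39 and 11.0 RPKM in PD, against 13.9, 11.4 and 10.2 RPKM in LZ. Ccnb3, an X-linked cyclin of early prophase, had 0.360, 0.199 and 0.239 RPKM in PD, against 53.9, 35.0 and 26.9 RPKM in LZ (log2 fold change -7.11 ± 0.33, adjusted p = 3.4e-09). Mad2l1, of the spindle checkpoint, fell, with 1.89, 1.98 and 1.3018 RPKM in PD, against 8.20, 6.99 and 6.21 RPKM in LZ (log2 fold change -2.06 ± 0.35, adjusted p = 0.00015). Plk1 and Ttk lost their calls as rises without LZ replicate 3.

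Of 22 tested transcription regulators of spermatocytes and spermatids 9 rose and 7 fell. Mybl1, the A-MYB gene, was not called, with 26.7, 25.6 and 29.2 RPKM in PD, against 24.984, 18.5 and 32.7 RPKM in LZ (adjusted p = 0.78), and the libraries of the groups overlapped. Tcfl5, a helix-loop-helix factor of pachytene, had 143, 131 and 144 RPKM in PD, against 27.0, 21.5 and 52.7 RPKM in LZ (log2 fold change 2.15 ± 0.27, adjusted p = 9.3e-06). In the RFX family Rfx2 and Rfx4 rose and Rfx1 and Rfx3 fell. Rfx4 had 20.8, 20.3 and 23.0 RPKM in PD, against 1.41, 1.56 and 8.32 RPKM in LZ (log2 fold change 3.01 ± 0.73, adjusted p = 0.0025). Rfx2, a regulator of cilia genes in spermatids, had 37.8, 35.3 and 37.9 RPKM in PD, against 6.73, 7.20 and 15.2 RPKM in LZ (log2 fold change 2.03 ± 0.29, adjusted p = 3e-05). Rfx1 had 0.240, 0.250 and 0.496 RPKM in PD, against 2.58, 2.31 and 2.85 RPKM in LZ (log2 fold change -3.01 ± 0.35, adjusted p = 5.1e-06). Hsf5, a testis heat shock factor, had 91.0, 84.6 and 98.2 RPKM in PD, against 14.5, 13.6 and 36.2 RPKM in LZ (log2 fold change 2.24 ± 0.37, adjusted p = 0.00011), and Hsf2 lost its call as a fall without LZ replicate 3. Taf4b, a germline subunit of TFIID, had 1.68, 1.37 and 1.57 RPKM in PD, against 46.5, 29.8 and 35.1 RPKM in LZ (log2 fold change -4.56 ± 0.28, adjusted p = 2.4e-08). Tbpl1, a relative of the TATA-binding protein, had 123, 112 and 129 RPKM in PD, against 20.8, 16.5 and 32.9 RPKM in LZ (log2 fold change 2.43 ± 0.65, adjusted p = 0.0045).

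The 15 protein-coding genes with the largest rises, among those whose libraries did not overlap and whose PD mean was at least 32 RPKM, had log2 fold changes of 4.89 to 5.77. Of these, Slc22a16, a carnitine transporter, had 173, 162 and 189.6 RPKM in PD, against 3.52, 2.94 and 16.4 RPKM in LZ (log2 fold change 4.97 ± 0.63, adjusted p = 1.1e-05). Aqp9, a channel for water and glycerol, had 57.2, 52.1 and 61.9 RPKM in PD, against 0.868, 1.10 and 5.65 RPKM in LZ (log2 fold change 5.01 ± 0.59, adjusted p = 6.8e-06). Slc13a5, a citrate transporter, had 34.5, 31.4 and 31.4 RPKM in PD, against 0.490, 0.590 and 3.62 RPKM in LZ (log2 fold change 4.98 ± 0.59, adjusted p = 7.2e-06). LZ replicate 3 was the highest LZ library in each of these genes. The others included Pbp2, with 394, 335 and 344 RPKM in PD, against 7.10, 5.71 and 28.3 RPKM in LZ; Rasl2-9, a Ran-like GTPase gene, with 248.96, 209.7 and 240.1 RPKM in PD, against 5.67, 3.92 and 19.5 RPKM in LZ; Lrrc23, a protein of sperm radial spokes, with 159, 149 and 153 RPKM in PD, against 2.63, 2.96 and 17.4 RPKM in LZ; and the zinc finger regulators Ovol2 and Zbtb42. Speer1 and Speer2 belong to a family of near-identical copies and are uncertain as single genes. The 15 largest falls had log2 fold changes of -10.74 to -7.58, and 9 of the 15 were X-linked, among them Pgrmc1, a haem-binding membrane protein with 0.156, 0.0176 and 0.243 RPKM in PD, against 48.5, 37.9 and 30.6 RPKM in LZ, and Bcap31, a protein of the endoplasmic reticulum with 0.0671, 0.0603 and 0.215 RPKM in PD, against 40.8, 33.5 and 21.9 RPKM in LZ. The autosomal H1f2 and H2bc15 encode histones made in S phase. Both belong to gene families, and H2bc15 has many near-identical copies.

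Promoters of the genes that moved are shown for both directions, because the regulators named above have known motifs. The sequences are the 250 bases before the transcription start in the RefSeq table for GRCm38.p6, on the strand of the gene; the genes were picked for a motif match after values and motifs had been seen. In the first set, genes that rose, capitals mark the MYB motif CAGTTG or its reverse complement CAACTG. Piwil1 is at chr5:128735996-128736245 (plus strand), Mesp1 at chr7:79793591-79793840 (minus), Speer1 at chr5:11340158-11340407 (plus) and Dnaic2 at chr11:114727169-114727418 (plus). For Piwil1 and Dnaic2 RefSeq also records an earlier start of the gene, inside the window for Piwil1 and at position 114721341, before the window, for Dnaic2, so the window of Dnaic2 precedes an internal start.
Piwil1: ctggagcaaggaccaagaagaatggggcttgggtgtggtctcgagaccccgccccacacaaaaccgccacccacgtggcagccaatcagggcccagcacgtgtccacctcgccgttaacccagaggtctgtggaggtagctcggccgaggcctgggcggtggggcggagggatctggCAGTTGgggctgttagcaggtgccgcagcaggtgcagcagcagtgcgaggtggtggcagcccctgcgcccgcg
Mesp1: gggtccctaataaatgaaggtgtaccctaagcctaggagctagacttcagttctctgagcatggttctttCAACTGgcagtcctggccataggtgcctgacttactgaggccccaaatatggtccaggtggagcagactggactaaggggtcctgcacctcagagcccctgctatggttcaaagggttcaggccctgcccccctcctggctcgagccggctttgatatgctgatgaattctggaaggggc
Speer1: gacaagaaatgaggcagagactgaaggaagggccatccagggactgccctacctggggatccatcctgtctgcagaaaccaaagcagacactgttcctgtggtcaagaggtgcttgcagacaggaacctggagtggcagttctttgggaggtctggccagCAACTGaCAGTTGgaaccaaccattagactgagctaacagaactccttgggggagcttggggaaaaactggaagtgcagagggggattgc
Dnaic2: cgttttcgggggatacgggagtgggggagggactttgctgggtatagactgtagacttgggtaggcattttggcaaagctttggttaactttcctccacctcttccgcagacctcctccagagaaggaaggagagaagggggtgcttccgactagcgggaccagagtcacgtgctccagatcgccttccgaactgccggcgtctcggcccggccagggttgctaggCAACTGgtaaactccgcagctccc
Mesp1, a mesoderm transcription factor, had 127, 116 and 116 RPKM in PD, against 1.65, 1.58 and 9.93 RPKM in LZ (log2 fold change 5.33 ± 0.74, adjusted p = 2.8e-05), or 6.20 on the log2 scale without LZ replicate 3. Dnaic2, an outer dynein arm chain, had 26.7, 27.5 and 35.9 RPKM in PD, against 1.04, 0.675 and 2.14 RPKM in LZ (log2 fold change 4.69 ± 0.42, adjusted p = 6.3e-07). Speer1, one of a family of near-identical copies, had 62.7, 62.1 and 64.9 RPKM in PD, against 0.684, 0.325 and 6.61 RPKM in LZ. The first match lies 73 bases before the start in Piwil1, 180 in Mesp1, 90 in Speer1 and 24 in Dnaic2.

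In the second set, genes that fell, capitals mark the motif described for STRA8, CNCCTCAG, or its reverse complement. The window of Mesp1, a gene of the first set that rose, also holds this motif, left in lower case there. Bhmg1 is at chr7:19118345-19118594 (minus strand), Sohlh2 at chr3:55181794-55182043 (plus) and Prss50 at chr9:110857714-110857963 (plus). For Bhmg1 RefSeq records an earlier start too, inside the window.
Bhmg1: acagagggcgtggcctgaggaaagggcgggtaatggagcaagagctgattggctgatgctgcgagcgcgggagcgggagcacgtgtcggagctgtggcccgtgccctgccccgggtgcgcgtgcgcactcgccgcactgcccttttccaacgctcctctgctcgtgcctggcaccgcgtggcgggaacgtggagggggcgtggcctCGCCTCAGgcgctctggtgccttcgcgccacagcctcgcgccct
Sohlh2: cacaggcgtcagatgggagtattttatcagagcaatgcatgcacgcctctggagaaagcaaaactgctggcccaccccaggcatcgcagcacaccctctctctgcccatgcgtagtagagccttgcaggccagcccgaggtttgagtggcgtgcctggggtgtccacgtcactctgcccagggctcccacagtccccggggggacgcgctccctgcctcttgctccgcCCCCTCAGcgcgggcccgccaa
Prss50: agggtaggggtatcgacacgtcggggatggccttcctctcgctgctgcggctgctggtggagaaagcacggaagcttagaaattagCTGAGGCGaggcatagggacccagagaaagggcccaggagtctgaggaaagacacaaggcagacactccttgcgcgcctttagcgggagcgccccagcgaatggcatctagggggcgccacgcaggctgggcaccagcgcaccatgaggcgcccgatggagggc
Prss50, a testis protease also called TSP50, had 0.0374, 0.0786 and 0.160 RPKM in PD, against 173, 135 and 155 RPKM in LZ (log2 fold change -10.74 ± 0.64, adjusted p = 2e-08), the lowest fold change among the 15 largest falls. The match begins 44 bases before the start in Bhmg1, 22 in Sohlh2 and 164 in Prss50.

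Motifs were counted over 300 bases, from 250 before to 50 after the start, on both strands, in the 10391 tested genes with a promoter in the table. The MYB motif was present in 23.7% of the 355 promoters of autosomal genes that rose by at least 4 on the log2 scale, in 15.1% of those of all autosomal rises, in 10.6% of genes not called and in 10.1% of falls. In the 367 promoters of X-linked genes that fell it was present in 18.5%. All 27025 promoters of the table held it in 13.6%. The STRA8 motif was present in 12.8% of the 682 promoters of autosomal genes that fell by at least 4, in 10.7% of all autosomal falls, in 9.59% of genes not called, in 8.25% of rises and in 8.73% of rises by at least 4. It was present in 13.1% of promoters of X-linked genes that fell, in 9.70% of those of all tested genes and in 7.97% of all promoters. Base composition differed as well. A ratio of observed to expected CpG above 0.6 was found in 30.7% of the promoters that rose by at least 4, in 60.5% of all autosomal rises, in 69.7% of falls and in 72.0% of falls by at least 4. For autosomal genes not called the share was 72.9%, above that of all falls, and for all tested genes it was 67.1%, against 36.4% of all promoters. The GC box GGGCGG was present in 33.8% of rises by at least 4 and in 72.1% of falls by at least 4. Its share was 59.6% for autosomal genes not called, 58.0% for all tested genes and 35.9% for all promoters. The RFX motif GTTGCCATG was present in 7 of the 355 promoters that rose by at least 4 (1.97%). Its share was 0.977% for autosomal genes not called, 0.943% for all tested genes and 0.759% for all promoters. The E2F motif TTTCCCGC was present in 1.44% of rises, 2.50% of falls and 2.03% of all tested genes. These shares are descriptions of letters in a window and carry no test.

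**Figure D5:**
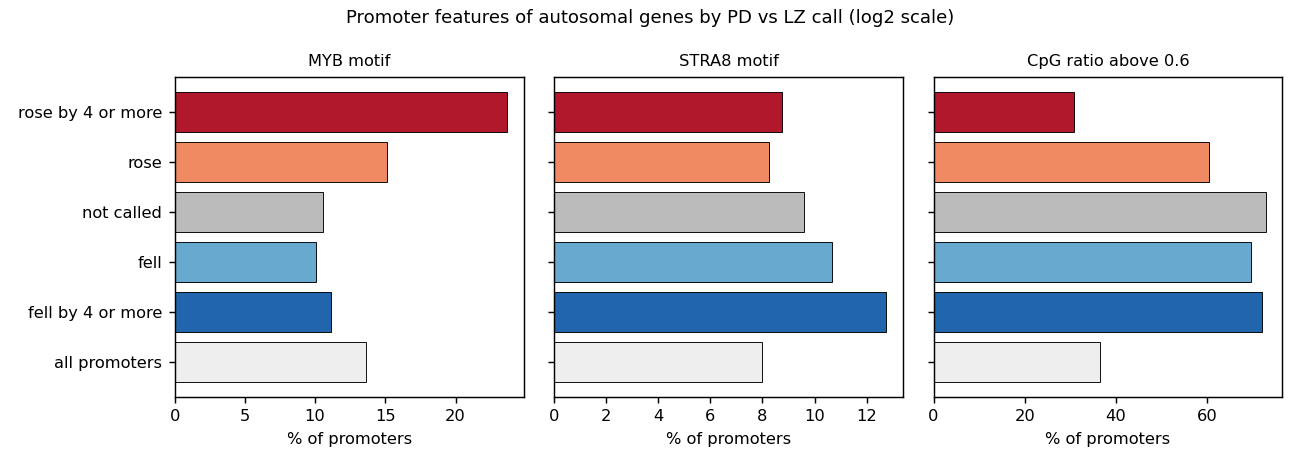
Share of promoters (300 bases) of autosomal genes that hold the MYB motif, hold the STRA8 motif or have a CpG ratio above 0.6, by the call of the gene in PD vs LZ on the log2 scale, with all promoters of the table last. The MYB share is 23.7% for genes that rose by 4 or more, 11.1% for genes that fell by 4 or more and 10.6% for genes not called. The CpG share is 30.7% for genes that rose by 4 or more, 72.0% for genes that fell by 4 or more and 72.9% for genes not called.

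Of 26 tested genes of the piRNA pathway, which silences transposons in germ cells, 10 rose and 6 fell; under quantile scaling 12 fell. The PIWI proteins went apart: Piwil1 rose, and Piwil2, the earlier acting partner, had 38.1, 39.0 and 30.4 RPKM in PD, against 77.1, 67.4 and 136 RPKM in LZ (log2 fold change -1.32 ± 0.37, adjusted p = 0.0065). Henmt1, which methylates piRNA 3′ ends, had 23.6, 22.4 and 20.9 RPKM in PD, against 1.65, 1.66 and 4.93 RPKM in LZ (log2 fold change 3.22 ± 0.37, adjusted p = 5.6e-06). Pld6, of the mitochondrial outer membrane, had 56.6, 58.5 and 47.7 RPKM in PD, against 4.72, 5.53 and 17.8 RPKM in LZ (log2 fold change 2.80 ± 0.48, adjusted p = 0.00016). Mael, a germ granule protein, was the most abundant member, with 819.9, 663 and 646 RPKM in PD, against 184, 150.2 and 301 RPKM in LZ (log2 fold change 1.80 ± 0.37, adjusted p = 0.00076). Tdrd6, a scaffold of the chromatoid body, had 237, 246 and 285 RPKM in PD, against 6.33, 6.24 and 35.3 RPKM in LZ (log2 fold change 4.51 ± 0.81, adjusted p = 0.00024). In these 4 genes that rose LZ replicate 3 was the highest LZ library. Mov10l1, the helicase that starts piRNA processing, fell, with 18.9, 20.1 and 15.3 RPKM in PD, against 116, 117 and 113 RPKM in LZ (log2 fold change -2.68 ± 0.21, adjusted p = 1.7e-07). Tex15, which acts with nuclear PIWI proteins, had 0.681, 1.12 and 1.29 RPKM in PD, against 98.4, 59.5 and 71.8 RPKM in LZ (log2 fold change -6.22 ± 0.77, adjusted p = 9.8e-06). Ddx4, the germ cell helicase VASA, was not called, with 134, 141 and 154 RPKM in PD, against 93.6, 71.4 and 156 RPKM in LZ.

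Genes of mRNA storage and translation differed within families: 9 of 27 tested rose and 10 fell, and 5 rose under quantile scaling. The Y-box proteins, which bind stored mRNA, rose in all 3 cases, and Ybx3 had 648, 599 and 624 RPKM in PD, against 25.8, 24.0 and 111 RPKM in LZ (log2 fold change 3.93 ± 0.50, adjusted p = 1.2e-05). Among poly(A)-binding proteins Pabpc2 had 268, 278 and 325 RPKM in PD, against 7.90, 7.51 and 31.0 RPKM in LZ (log2 fold change 4.56 ± 0.49, adjusted p = 2.9e-06) and Pabpc6 had 361, 337 and 409.6 RPKM in PD, against 10.5, 10.3 and 45.1 RPKM in LZ (log2 fold change 4.44 ± 0.58, adjusted p = 1.5e-05). These 2 genes are close relatives of Pabpc1, so reads may be shared between copies; Pabpc1 itself had 194, 197 and 186 RPKM in PD, against 61.6, 57.7 and 81.7 RPKM in LZ and lost its call as a rise without LZ replicate 3. Pabpc4 fell, with 0.0496, 0.00812 and 0.0362 RPKM in PD, against 2.18, 1.63 and 1.64 RPKM in LZ (log2 fold change -5.62 ± 0.54, adjusted p = 1.1e-06). The scaffold of cap-dependent initiation Eif4g1 had 3.12, 3.34 and 2.74 RPKM in PD, against 28.3, 22.3 and 26.4 RPKM in LZ (log2 fold change -3.06 ± 0.18, adjusted p = 2.2e-08), whereas its relative Eif4g3 had 25.8, 27.1 and 28.9 RPKM in PD, against 11.1, 10.9 and 15.1 RPKM in LZ (log2 fold change 1.16 ± 0.26, adjusted p = 0.0013). For poly(A) polymerases, Papolb, the germline form, had 102, 96.8 and 126 RPKM in PD, against 8.62, 7.83 and 20.9 RPKM in LZ (log2 fold change 3.26 ± 0.30, adjusted p = 8.4e-07), and Papola had 6.86, 6.89 and 6.59 RPKM in PD, against 26.4, 19.8 and 23.2 RPKM in LZ (log2 fold change -1.76 ± 0.19, adjusted p = 2.9e-06). Cpeb1, a regulator of polyadenylation, had 0.191, 0.183 and 0.116 RPKM in PD, against 10.8, 9.63 and 10.4 RPKM in LZ (log2 fold change -5.92 ± 0.34, adjusted p = 1.4e-08). All these pairs lay without overlap between the groups, as did most tested genes.

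Chaperone and proteasome genes included 7 of 25 tested that rose and 11 that fell; under quantile scaling or scaling to the reads in genes 4 rose. Hspa8, the constitutive heat shock protein, had 17.4, 14.3 and 10.2 RPKM in PD, against 117, 90.7 and 99.0 RPKM in LZ (log2 fold change -2.90 ± 0.42, adjusted p = 3.9e-05), and Hspa5, of the endoplasmic reticulum, had 146, 141 and 154 RPKM in PD, against 757, 603 and 631 RPKM in LZ (log2 fold change -2.17 ± 0.40, adjusted p = 0.00031). Hspa2, the germline form needed to disassemble the synaptonemal complex, had 643, 621 and 669.7 RPKM in PD, against 119, 112 and 361 RPKM in LZ (log2 fold change 1.93 ± 0.75, adjusted p = 0.035). Their cochaperones Dnajb3 and Dnajb1 rose, and Dnajb3 had 227, 215 and 209 RPKM in PD, against 22.5, 24.6 and 52.7 RPKM in LZ (log2 fold change 2.81 ± 0.31, adjusted p = 4e-06). Uchl1, an abundant ubiquitin hydrolase of spermatogonia, had 1.75, 1.60 and 1.42 RPKM in PD, against 23.0, 19.7 and 16.4 RPKM in LZ (log2 fold change -3.62 ± 0.27, adjusted p = 1.1e-07), while Uchl3 was not called, with 25.1, 21.8 and 22.9 RPKM in PD, against 14.4, 11.3 and 12.5 RPKM in LZ. Ubb, one of the polyubiquitin genes, was the third most abundant gene in PD by RPKM, with 1737, 1627 and 1469.7 RPKM in PD, against 314, 296 and 595 RPKM in LZ (log2 fold change 2.08 ± 0.24, adjusted p = 5.8e-06). Psma8, the germline subunit of the proteasome, was called as a rise only without LZ replicate 3, with 88.2, 78.8 and 64.7 RPKM in PD, against 31.7, 28.6 and 91.5 RPKM in LZ.

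Genes that assemble the axoneme of the sperm tail rose in a larger share than any other list. Of 38 tested 37 rose, and their median was 3.53 on the log2 scale (4.14 without LZ replicate 3), against -0.36 over all genes. Rsph6a, a radial spoke protein, had 128, 121 and 138 RPKM in PD, against 3.39, 2.79 and 15.2 RPKM in LZ (log2 fold change 4.61 ± 0.81, adjusted p = 0.00019). Zmynd10, which preassembles dynein arms, had 362, 343 and 319 RPKM in PD, against 7.24, 8.13 and 57.8 RPKM in LZ (log2 fold change 4.50 ± 0.63, adjusted p = 3e-05). Ccdc40, which sets the repeat of the axoneme, had 57.5, 57.9 and 64.5 RPKM in PD, against 1.57, 1.4971 and 7.59 RPKM in LZ (log2 fold change 4.51 ± 0.53, adjusted p = 5.9e-06). Dnah8, an outer arm heavy chain, had 154, 178 and 185 RPKM in PD, against 6.73, 9.42 and 41.6 RPKM in LZ (log2 fold change 3.63 ± 0.51, adjusted p = 2.9e-05). In each of these genes LZ replicate 3 was the highest LZ library. Dnaaf5, another assembly factor, was the member not called, with 16.5, 16.5 and 16.1 RPKM in PD, against 9.29, 8.86 and 14.7 RPKM in LZ. Among genes of the centriole and of the base of the cilium, 5 of 20 rose and 2 fell, and 9 rose under either median centring or quantile scaling. Cep63, of the centriole duplication ring, had 66.1, 65.9 and 82.0 RPKM in PD, against 11.0, 9.37 and 18.4 RPKM in LZ (log2 fold change 2.52 ± 0.24, adjusted p = 1e-06), and Plk4, the kinase that starts duplication, was not called, with 18.1, 18.3 and 19.5 RPKM in PD, against 18.0, 14.2 and 16.7 RPKM in LZ. Cetn4 had 38.2, 38.2 and 41.2 RPKM in PD, against 3.55, 2.57 and 8.55 RPKM in LZ (log2 fold change 3.19 ± 0.41, adjusted p = 1.4e-05), and the X-linked Ofd1, of the basal body, had 0.0897, 0.132 and 0.124 RPKM in PD, against 19.5, 13.6 and 10.3 RPKM in LZ (log2 fold change -6.82 ± 0.53, adjusted p = 1.7e-07).

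Most autosomal ribosomal protein genes were not called. Of 39 tested 4 fell, and the median on the log2 scale was -0.09. This rested on the scaling: under median centring 5 rose and 1 fell, under quantile scaling 26 fell, and with scaling to the reads in genes 12 fell. Without PD replicate 3, 2 fell. The 3 falls named by the rule were Rpl22, Rpl14 and Rps19. Rpl22 had 11.6, 9.22 and 6.73 RPKM in PD, against 30.1, 31.7 and 28.6 RPKM in LZ (log2 fold change -1.75 ± 0.24, adjusted p = 2.2e-05). Rpl14 and Rps19 lost their calls under median centring (-0.83 and -0.63), and Rps19 also without PD replicate 3 (-0.93). Ribosomal protein genes have many processed copies, so single members are uncertain.

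The most abundant genes by RPKM differed between the groups. Ldhc, the germline lactate dehydrogenase, had 2915, 2732 and 2780.0 RPKM in PD, against 91.3, 77.2 and 461 RPKM in LZ (log2 fold change 4.24 ± 0.49, adjusted p = 5.7e-06), and without LZ replicate 3 its log2 fold change was 5.06. Fabp9, a fatty acid-binding protein of the perforatorium, had 1293, 1270.0 and 1344 RPKM in PD, against 76.3, 77.2 and 332 RPKM in LZ (log2 fold change 3.38 ± 0.44, adjusted p = 1.6e-05). Rpph1, the RNA subunit of RNase P, was highest in both groups, with 5740.2, 2912 and 1880.1 RPKM in PD, against 17585, 27929 and 28219 RPKM in LZ (log2 fold change -2.93 ± 0.84, adjusted p = 0.007); its call was lost when the 6 libraries were fitted alone (adjusted p = 0.21) and under quantile scaling. Rmrp, the RNA of RNase MRP, had 706, 567 and 364 RPKM in PD, against 5883, 9103 and 6529.7 RPKM in LZ (log2 fold change -3.74 ± 0.70, adjusted p = 0.00035). Ccnb1ip1, a crossover gene known as HEI10, had 580.2, 310.0 and 191 RPKM in PD, against 1739, 2863 and 2774 RPKM in LZ, which was 9.83% to 10.6% of the level of Rpph1 in every one of the 6 libraries. In GENCODE M21 an exon of Ccnb1ip1 (chromosome 14, 50807500 to 50807732) lies within Rpph1 (50807449 to 50807767) on the same strand, so its level cannot be told apart from that of Rpph1.

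Of 1019 tested lncRNA genes 369 rose (36.2%, against 25.5% of all genes) and 255 fell, against 35.8% of all genes that fell. The split was 432 and 188 under median centring, 555 and 90 under quantile scaling, and 330 and 322 with scaling to the reads in genes. Gm35584 on chromosome 3 had 14.7, 14.3 and 16.3 RPKM in PD, against 0.0324, 0.247 and 1.78 RPKM in LZ (log2 fold change 5.81 ± 0.97, adjusted p = 0.00013). 1700069L16Rik on chromosome 5 had 19.1, 16.2 and 19.2 RPKM in PD, against 0.141, 0.330 and 1.15 RPKM in LZ (log2 fold change 5.54 ± 0.56, adjusted p = 1.8e-06). Hoxb5os, named for the strand opposite Hoxb5, had 14.8, 13.4 and 10.8 RPKM in PD, against 0.0597, 0.213 and 1.64 RPKM in LZ (log2 fold change 5.45 ± 0.88, adjusted p = 0.0001). These lncRNAs were under 2 RPKM in each LZ library. Of those that fell, B230354K17Rik on chromosome 17 had 0.798, 0.969 and 0.752 RPKM in PD, against 9.65, 8.32 and 7.47 RPKM in LZ (log2 fold change -3.32 ± 0.36, adjusted p = 2.8e-06), and 1700027A15Rik on chromosome 1 had 1.89, 1.80 and 6.17 RPKM in PD, against 18.7, 23.0 and 31.3 RPKM in LZ (log2 fold change -3.11 ± 0.48, adjusted p = 7.4e-05), with PD replicate 3 the highest PD library. The falls among lncRNAs depended on the treatment of low values: 83 were called with a pseudocount of 1 RPKM, 123 with the filter on the 6 libraries and 563 without a filter.

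The study also assembled transcripts anew, and 5329 tested loci had no reference gene on their strand. Of these 1485 rose (27.9%) and 1656 fell (31.1%), against 26.6% and 32.3% of all 21515 de novo genes tested. The direction of this split depended on scaling. Under median centring 1740 rose and 1400 fell, and under quantile scaling 1781 rose and 1117 fell. With scaling to the reads in genes 1278 rose and 1906 fell. Loci of several exons rose more often than they fell (879 and 674 of 2836), and loci of a single exon fell more often (606 rises and 982 falls of 2493). On the X 51 of 82 loci fell. MSTRG.900 on chromosome 1 (125174858 to 125179396, mm10, plus strand) is a single exon of 4539 bases with no reference gene on either strand, and it had 57.4, 54.2 and 65.1 RPKM in PD, against 0.501, 0.749 and 6.49 RPKM in LZ (log2 fold change 5.43 ± 0.67, adjusted p = 1e-05). MSTRG.13712 on chromosome 2 (43127816 to 43131710, plus strand), with 5 exons, had 14.8, 16.5 and 19.3 RPKM in PD, against 0.348, 0.142 and 1.3047 RPKM in LZ (log2 fold change 5.33 ± 0.62, adjusted p = 5.8e-06). The named loci that fell were single exons of 316 to 705 bases. MSTRG.3617 on chromosome 11 (61582729 to 61583235, minus strand) was listed at 0 RPKM in every PD library, against 30.8, 44.7 and 16.5 RPKM in LZ.

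Loci opposite or next to genes were compared with those genes. Where the gene on the other strand rose, 455 of 694 loci rose (65.6%) and 75 fell, and where it fell, 63 of 657 rose and 414 fell (63.0%). Where the locus started within 1 kb of a divergent gene, 220 of 312 loci rose with a gene that rose (70.5%); beside a gene that fell, 119 of 325 fell (36.6%) and 76 rose (23.4%). Beside genes that were not called, 18.3% of loci on the other strand rose and 24.2% fell, and 27.0% of divergent loci rose and 17.7% fell. The level of a locus relative to its gene was close to constant in some of the most abundant pairs and not in others. MSTRG.13217 lies opposite Meig1 and held 192% to 196% of its RPKM in all 6 libraries, and MSTRG.15274, opposite Fabp9, held 88.4% to 89.5% of the level of that gene. MSTRG.3639, opposite Ubb, held 63.7% to 64.7% of its gene in PD, against 48.7% to 54.2% in LZ, and MSTRG.6528, opposite Gkap1, held 779% to 832% in PD, against 653% to 759% in LZ, so that for both the groups did not overlap. Since strand was not given for these libraries, reads of such a locus and of the gene across from it cannot be told apart.

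LZ replicate 3 differed from the other LZ libraries more in genes that rose than in genes not called. In the 3375 genes that rose it was above both other LZ libraries in 94.3%, and its median difference was 1.05 on the log2 scale. In the 5140 genes not called it was above both in 68.9%, with a median difference of 0.31. For genes that rose, its median position in RPKM was 16.3% of the way between the mean of the other LZ libraries and the PD mean. In the 446 X-linked genes that fell it was below both in 66.4%, against 32.4% of all genes that fell and 11.2% of genes not called. Genes that fell on all chromosomes showed no such lean, with a median of -0.000710 on the log2 scale. Among the 5 genes named for their lead in LZ replicate 3, 1700042G15Rik had 107, 104 and 124 RPKM in PD, against 5.74, 6.57 and 73.1 RPKM in LZ (log2 fold change 2.98 ± 0.84, adjusted p = 0.0062). Ptchd3, a sperm membrane protein, had 24.4, 23.0 and 22.9 RPKM in PD, against 4.24, 5.20 and 37.9 RPKM in LZ, was not called with all libraries (adjusted p = 0.086) and rose without LZ replicate 3 (log2 fold change 2.31). The Sertoli and elongating-spermatid marker sums given above were also highest in LZ replicate 3 within its group.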

How the data were processed

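The authors deposited 2 tables of log2 values and a de novo annotation. The submitters' processing notes name Trim Galore, STAR and the builds GRCm38 and mm10, without versions or settings. Per the file headers, transcripts were assembled with StringTie 1.3.4d; the deposited coordinates are other values, positions of transcripts and exons. Each deposited log2 value is log2 of 100 times RPKM plus 1, a pseudocount of 0.01 RPKM. This was checked: values times exon length fell on whole reads within 0.01 read for 22522 of 22526 genes, and the step gave the library totals. Printed levels are RPKM with the pseudocount removed. Precision is limited by depth at low levels, where a fold change on this scale is understated.

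The fit held the 15 libraries of the 5 stages that have 3 each, and genes at 1 RPKM or more in 3 or more of them were tested. It used limma 3.58.1 in R 4.3.3, with eBayes and a mean-variance trend; PD minus LZ was taken from it, with Benjamini-Hochberg adjustment over all 13260 genes and over 21515 de novo genes. Fold changes are given ± SE, for which the spread was estimated over all 15 libraries. Calls need an adjusted p under 0.05 and a log2 change of 1 or more in size. Symbols, types and positions came from RefSeq for GRCm38.p6 (24570 of 24594 gene IDs found), and de novo loci were compared with GENCODE M21.

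The comparison, members, gene lists and pairs were chosen with earlier results of these data known. Genes are named as the 4 markers; up to 3 members of each list in its main direction and 1 in the other, by fold change at 8 RPKM or more; the 15 largest protein-coding rises and falls at 32 RPKM and the 5 largest lncRNA and locus changes at 8 RPKM, without overlap; X-linked rises and the 5 highest X-linked genes in PD; the pairs; the 5 most abundant genes of each group; and the 5 genes leading LZ replicate 3. Not all of these are printed, and 1 of the 14 pairs is not reported here singly. Alternatives were other samples, filters, pseudocounts and scalings, a replicate block and each library left out; 2 that combine the loss of LZ replicate 3 with another choice were chosen after seeing the data.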

Additional observations from a re-analysis of the deposited data

How the results depend on the processing

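Without the filter on low values, 8189 genes fell, 765 X-linked genes fell, 563 lncRNA genes fell and 2369 loci without a reference gene rose. With the filter on the 6 libraries alone, 123 lncRNA genes and 931 such loci fell. With a pseudocount of 1 RPKM, 83 lncRNA genes fell, and 960 such loci rose and 835 fell. Quantile scaling gave 555 lncRNA rises and 90 lncRNA falls, and turned the log2 fold change of G6pd2 to 0.25. The 2 X-linked rises became 4 without a filter, 0 with the filter on the 6 libraries (387 falls of 389 tested), 1 with a pseudocount of 0.1 RPKM, 0 with 1 RPKM, 35 under quantile scaling, 1 with scaling to reads in genes, and 5 in each of the settings added after seeing the data, namely the 6 libraries without LZ replicate 3 and median centring without it. The cause was not tested in any of these. Leaving out each library in turn gave 2995 to 3591 rises and 4441 to 4678 falls over all genes, and 1 to 3 rises on the X, where leaving out LZ replicate 2 gave 1. Deviations of libraries with the same number correlated at 0.03, 0.13 and 0.12, and of libraries with different numbers at -0.16 to 0.11. Deviations within a group cancel out, so these values do not decide whether the numbers of the labels pair the libraries. With the replicate block 3347 genes rose and 4708 fell. Among named genes, quantile scaling left 152 of 161 with the same call and the replicate block all 161. Depth limits statements on genes near 0 in PD, whose fold changes depend on the pseudocount.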
